A study of Mus musculus with 8 samples.

Results

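Fgf3 encodes a secreted fibroblast growth factor (FGF), and in mouse acute myeloid leukaemia (AML) cells its 3′ counts were lower in every library from AG636-treated mice than in any library from Vehicle mice. It is described here with 7 genes of the same distal stretch of chromosome 7: Fgf4, Fgf15, Ccnd1, Ano1, Fadd, Ppfia1 and Cttn. These 8 genes were matched by symbol among the 54838 genes of the count table. Fgf3 was picked because of its lower counts under AG636 in these same libraries, so its own values are a description and carry no test. The other 7 were picked by position. All except Fgf4 had counts in at least 1 library, and 4 of the 7, Ano1, Fadd, Ppfia1 and Cttn, had enough to be tested.

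To examine what inhibition of pyrimidine synthesis does to gene expression in leukaemic cells, RNA was profiled in 4 Vehicle samples and 4 AG636 samples. All 8 samples were AML cells of genotype RUNX1-RUNX1T1, a core-binding factor fusion, on a C57BL/6 background, transplanted into Ptprca recipients. AG636 blocks DHODH, an enzyme of pyrimidine synthesis, and was given by gavage at 100 mg/kg b.i.d., for a day according to the legend of the study. Immature leukaemic cells that were high for cKit and low or negative for CD11b were sorted from bone marrow and spleen, without a record of which sample came from which tissue. The labels state sub-lethal irradiation of the recipients, whereas the methods describe it only for other models. The transplanted cells were stored cells of a moribund mouse, so all libraries may descend from 1 leukaemia. The age of the mice and the promoter that drives the fusion are not given in the sources used here. The labels do not say whether each sample is a separate mouse, and the legend gives fewer mice per group than there are samples here, so p-values measure only the spread between these samples, which may be technical.

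The libraries held 6120030 to 7162036 counts. Vehicle 4 stood apart from the other 3 Vehicle libraries. AG636 2 and AG636 3 stood apart from each other, with a Spearman correlation of 0.959, against 0.970 to 0.980 for the other AG636 pairs. Several differences between the groups are given with and without these libraries. SDs and correlations within groups are given with all libraries only. Kit, the surface marker of the sort, had 1022 to 1580 counts per library, and the progenitor factors Myb and Gata2 had 2664 to 4493 and 1666 to 2965. Itgam, which encodes CD11b, had at most 4 counts. The myeloid enzyme gene Mpo had only 3 to 33 counts, and the pan-leukocyte gene Ptprc 13 to 64. Levels are given as CPM, counts scaled to a common library size after adjustment by TMM factors, which correct for library composition. Differences are log2 fold changes, AG636 minus Vehicle, from limma-voom, a linear model fitted to all 10911 genes that passed a filter on low counts, and a gene is called where its adjusted p is under 0.05. The list of 10 progenitor markers, which holds Kit, Myb, Gata2, Mpo and Ptprc, summed to 926 to 1109 CPM in Vehicle and 1077 to 1265 CPM in AG636. Of its other genes, Flt3 had 1 to 5 counts, Ctsg 1 to 24, Elane 2 to 30 and Prtn3 7 to 31. Cd34 had 69, 82, 61 and 16 counts in Vehicle samples 1 to 4 and 29, 32, 223 and 28 in AG636 samples 1 to 4. The lists of markers of other cells were measured too. The summed level of 10 mature myeloid markers was 46.6 to 107 CPM in Vehicle and 17.7 to 210 CPM in AG636. That of 8 B cell markers was 6.76 to 14.3 and 12.6 to 25.3 CPM, with 1 of 5 tested genes, Cd79a, called higher, and that of 9 T and NK cell markers was 7.46 to 15.2 and 9.33 to 24.6 CPM. The 8 erythroid markers summed to 2248 to 6079 and 4715 to 6228 CPM, with 1 of 8, Hbb-bt, called higher. edgeR and DESeq2 also called Slc4a1 of this list higher. Among all tested genes limma-voom called 5.47% higher, and 1 call in so short a list does not set the B cell or erythroid markers apart. The 6 megakaryocyte markers summed to 27.2 to 32.7 and 21.7 to 75.0 CPM. Of these, Pf4 had 2, 7, 22 and 35 counts in Vehicle and 154, 17, 148 and 95 in AG636 and was called higher by edgeR and DESeq2 but not by limma-voom. The 6 stromal and endothelial markers, with Cxcl12 at 0 in all libraries, summed to 2.01 to 3.64 and 1.76 to 9.02 CPM. Marker genes named with values here were named after these were seen. All of these summed ranges overlapped between the groups, and their part in the results below was not tested. In such sorted bulk samples, fewer cells of a type and less RNA per cell cannot be told apart.

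FGFs are secreted ligands that bind receptor tyrosine kinases together with heparan sulphate, and the receptors signal through adaptors such as Frs2 to RAS, RAF and the ERK kinases. ERK signalling induces its own inhibitors, among them the Sprouty, Spred and Dusp genes, which are therefore read as a record of pathway activity. Fgf3 acts in the embryo, for example in the inner ear, and is also known as a gene that mouse mammary tumour virus activates by inserting nearby. The chromosome segment around it, with the cyclin D1 gene Ccnd1, the chloride channel gene Ano1, the death receptor adaptor gene Fadd, the liprin gene Ppfia1 and the cortactin gene Cttn, corresponds to a human segment that is often amplified as a block in carcinomas.

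The starts of Fgf3, of the gene next to it, which had no counts, and of the nearest testable member are shown because they set a gene with many counts beside one with none. The bases lie upstream of the start that RefSeq gives in GRCm38.p6, written 5′ to 3′ on the gene's strand, without the 20 bases next to the start. The window is chr7:144838362-144838591 on the + strand for Fgf3, chr7:144861136-144861365 on the + strand for Fgf4 and chr7:144738594-144738823 on the - strand for Ano1. Capitals mark the longest uninterrupted run of C and T in each.
Fgf3: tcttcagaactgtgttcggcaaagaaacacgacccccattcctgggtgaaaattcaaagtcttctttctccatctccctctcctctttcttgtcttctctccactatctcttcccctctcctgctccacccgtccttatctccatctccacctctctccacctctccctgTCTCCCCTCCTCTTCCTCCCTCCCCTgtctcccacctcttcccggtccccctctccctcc
Fgf4: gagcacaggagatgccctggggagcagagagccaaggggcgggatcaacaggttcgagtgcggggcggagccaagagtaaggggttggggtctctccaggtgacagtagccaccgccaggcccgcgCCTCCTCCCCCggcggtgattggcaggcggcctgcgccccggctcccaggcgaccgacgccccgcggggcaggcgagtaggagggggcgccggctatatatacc
Ano1: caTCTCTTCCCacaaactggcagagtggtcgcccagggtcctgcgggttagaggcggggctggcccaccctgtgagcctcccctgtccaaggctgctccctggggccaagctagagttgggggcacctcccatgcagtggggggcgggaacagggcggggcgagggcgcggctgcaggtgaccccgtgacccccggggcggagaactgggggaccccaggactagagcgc
The count table also lists a separate upstream exon for each of these 3 genes, so each window lies inside the outline of its gene there.

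The bases before the Fgf3 start were mostly pyrimidines. Over the full 250 bases before the start, C and T made up 79.2%, a higher share than in 99.9% of the 32851 promoters in the RefSeq table. The longest run of C and T had 26 bases and was longer than the longest run of 99.0% of promoters. The same windows of Fgf4 and Ano1 held 42.4% and 44.0% C and T, with runs of 11 and 9 bases. For 6 short motifs, both strands from 250 bases before to 50 bases after the start were searched in the 5 members with an entry (Fgf3, Fgf4, Ano1, Fadd and Ppfia1). The GC box GGGCGG was found in the other 4 but not in Fgf3, and in 35.7% of all promoters. The RUNX core TGTGGT (16.8% of all promoters), the E-box CACGTG (7.2%), the YY1 motif AAGATGGC (2.7%), the TATA box TATAAA (13.6%) and the ETS motif CCGGAAGT (3.9%) were in none of the 5 windows. Only these exact letters were counted, so a near form, such as the tatatata close to the end of the Fgf4 bases, was not. These are descriptions of letters and say nothing about which factors bind.

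Fgf3 (ENSMUSG00000031074) lies at chr7:144838083-144844436 on the + strand, with a last exon of 1862 bases that overlaps no other gene. Its counts in Vehicle samples 1 to 4 were 1165, 1201, 1406 and 805. Its counts in AG636 samples 1 to 4 were 396, 129, 664 and 532. No AG636 library reached the lowest Vehicle library, Vehicle 4, and AG636 2 stood well below the other 3. On the CPM scale, Vehicle libraries held 170, 185, 218 and 123 and AG636 libraries 61.6, 20.6, 106 and 76.9. The means were 174 ± 39.5 and 66.3 ± 35.6 CPM (SD, n = 4 each), a ratio of 2.62, and the fitted log2 fold change was -1.58. It was -1.10 without AG636 2, -1.87 without AG636 3 and -1.72 without Vehicle 4. The gap between the groups was narrow: the lowest Vehicle level was 1.16 times the highest AG636 level. Such separation was not rare, since the groups did not overlap for 22.2% of all 10911 genes tested, 12.9% lower in AG636.

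Fgf3 was among the more abundant transcripts of these cells. By counts it ranked between 769 and 1660 among all genes in the Vehicle libraries, above 90.4 to 95.4% of the genes with a count. In the AG636 libraries its rank was between 1869 and 6454, above 61 to 89.6% of them. The level also varied within the groups, by 1.78 times between the highest and the lowest Vehicle library and 5.15 times between the highest and the lowest AG636 library. The SD of its log2 CPM was 0.35 in Vehicle, larger than for 97.5% of the 5260 genes that averaged 5 or more on the log2 CPM scale, for which the median SD was 0.11. In AG636 the SD was 1.02, larger than for 99.6% of these genes, with a median of 0.17.

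**Figure D1:**
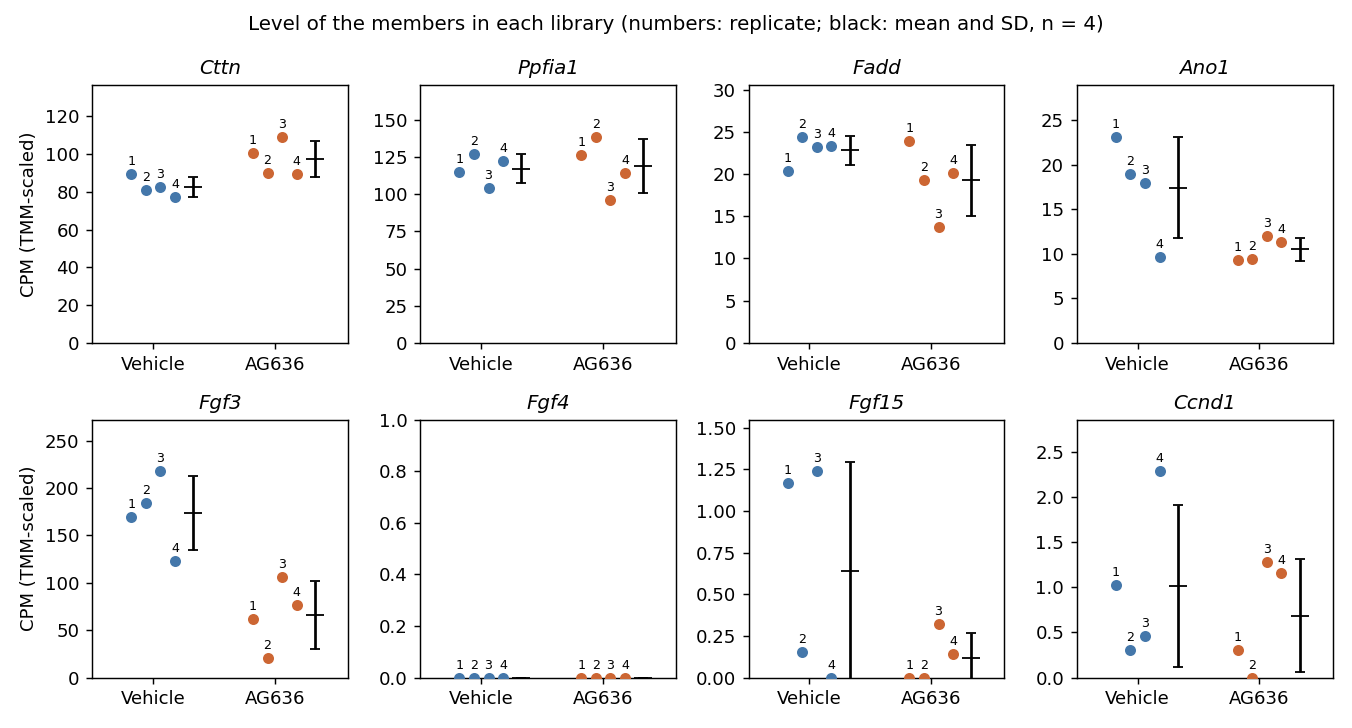
Level of the 8 genes in each library in CPM, with replicate numbers as points and the mean and SD of 4 libraries in black. Fgf3 separated the groups, with Vehicle libraries between 123 and 218 CPM and AG636 libraries between 20.6 and 106 CPM, Fgf4 was at 0 in all, and each axis starts at 0 with its own scale.

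The FGF genes next to Fgf3 had few or no counts. Fgf4 (ENSMUSG00000050917, chr7:144847367-144865243, + strand), a growth factor of the early embryo, begins 2.9 kb after Fgf3 and had 0 counts in all 8 libraries. A count of 0 allows a level of up to 3 counts, or 0.434 to 0.479 CPM depending on the library, by counting error only. Fgf15 (ENSMUSG00000031073, chr7:144896531-144900953, + strand), an endocrine FGF best known from the gut as a regulator of bile acid synthesis, begins 52.1 kb after Fgf3. It had 8, 1, 8 and 0 counts in Vehicle samples 1 to 4 and 0, 0, 2 and 1 in AG636 samples 1 to 4. Vehicle 1 and 3 thus carried nearly all of its counts, and the groups overlapped. The mean level was 0.639 CPM in Vehicle and 0.116 CPM in AG636, a difference that did not pass an exact two-sided permutation test (p = 0.257, or 0.514 when adjusted over 2 genes, with 0.0286 as the smallest p that 70 relabellings allow). Fgf15 shares 787 exonic bases with Gm26793 and Gm39119 on the other strand, and whether the counting used strand was not stated, so these few counts are uncertain.

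Ccnd1 (ENSMUSG00000070348, chr7:144929931-144939925, - strand), which encodes cyclin D1, the partner of CDK4 and CDK6 in G1, was barely detected. It had 7, 2, 3 and 15 counts in Vehicle samples 1 to 4 and 2, 0, 8 and 8 in AG636 samples 1 to 4. Its highest library was Vehicle 4 and its lowest AG636 2, and the groups overlapped. The means were 1.02 CPM in Vehicle and 0.686 CPM in AG636 (exact permutation p = 0.571, adjusted p = 0.571 over the same 2 genes). Within its 2841-base last exon, 1100 bases overlap LTO1 on the other strand, among them the whole 282-base last exon of LTO1, so that reads there cannot be assigned without strand. LTO1 (ENSMUSG00000031072, a factor of iron-sulphur protein assembly) had 89, 112, 108 and 106 counts in Vehicle and 77, 86, 72 and 87 in AG636. Its log2 fold change was -0.33 (SE 0.15), which did not pass the test (limma-voom, adjusted p = 0.152).

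Ccnd2 and Ccnd3, which encode the other D-type cyclins, had far higher CPM than Ccnd1 in this 3′ assay, in which counts depend little on transcript length. Ccnd2 averaged 2179 ± 196 CPM in Vehicle and 1893 ± 361 CPM in AG636, and Ccnd3 226 ± 16.3 and 237 ± 39.3 CPM (SD, n = 4 each). Neither passed the test, with log2 fold changes of -0.22 and 0.06 (limma-voom, adjusted p = 0.297 and 0.765). Both were named after their values were seen. Of the 12 D-type cyclins, kinase partners and inhibitors listed, 10 were tested, 3 rose and 1 fell, where 14.0% of all tested genes were called, 5.47% higher and 8.49% lower. The median log2 fold change of the 10 was 0.20, against -0.006 for all tested genes. Cdkn2d, which encodes the CDK4/6 inhibitor p19, rose by 0.77 on the log2 scale (SE 0.11, limma-voom adjusted p = 0.00263), with 50.7 ± 4.05 CPM in Vehicle and 86.7 ± 10.6 CPM in AG636. The retinoblastoma gene Rb1 rose by 0.54 (SE 0.11, adjusted p = 0.0103, limma-voom). Both kept their call without any 1 library. Cdkn1b, which encodes the inhibitor p27, rose by 0.52 (SE 0.15, limma-voom adjusted p = 0.0436), and Cdk4 fell by 0.50 (SE 0.15, adjusted p = 0.0435). The call of Cdkn1b was lost without any 1 of the 4 Vehicle libraries, AG636 1 or AG636 2, and that of Cdk4 without any 1 library other than AG636 4 (adjusted p up to 0.120 and 0.106, limma-voom).

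Ano1 (ENSMUSG00000031075, chr7:144588549-144751974, - strand), a calcium-activated chloride channel, is the nearest testable member, and its nearer edge lies 86.1 kb before Fgf3. It and the 3 members below are on the - strand, so this edge is the one on the side of their start. Its counts were 159, 123, 116 and 63 in Vehicle samples 1 to 4 and 60, 59, 75 and 78 in AG636 samples 1 to 4. Vehicle 4 lay among the AG636 libraries and the other 3 Vehicle libraries above all of them. The levels were 17.4 ± 5.68 CPM in Vehicle and 10.5 ± 1.33 CPM in AG636 (SD, n = 4 each). The log2 fold change was -0.67 (SE 0.27, unadjusted 95% interval -1.25 to -0.08), which did not pass the test over all genes (limma-voom, adjusted p = 0.117). Without Vehicle 4 the value was -0.91 and passed (adjusted p = 0.0143, limma-voom), and without AG636 2 or AG636 3 it was -0.62 or -0.73 and did not (adjusted p = 0.197 and 0.119, limma-voom). DESeq2 on all 8 libraries also called it, at -0.71 (adjusted p = 0.0390), and edgeR did not (-0.73, adjusted p = 0.0631), with adjusted p-values from 0.0105 to 0.254 over all alternatives.

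None of the 3 members farthest from Fgf3 passed the test. Fadd (ENSMUSG00000031077, chr7:144577318-144582463, - strand), the adaptor that links death receptors to caspase 8, has its nearer edge 255.6 kb before Fgf3. It had 140, 159, 150 and 153 counts in Vehicle and 154, 121, 86 and 139 in AG636. AG636 3 was its lowest library and AG636 1 was within the Vehicle range. Its log2 fold change was -0.26 (SE 0.16, unadjusted 95% interval -0.62 to 0.09, limma-voom adjusted p = 0.300). Fadd shares 239 exonic bases with the antisense gene Faddos, which had 0 counts.

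Ppfia1 (ENSMUSG00000037519, chr7:144476758-144553729, - strand), a liprin that organises adhesion sites, has its nearer edge 284.4 kb before Fgf3. It had 788, 826, 674 and 805 counts in Vehicle and 813, 869, 601 and 789 in AG636. The groups overlapped throughout, with AG636 3 the lowest and AG636 2 the highest library. The levels were 117 ± 9.92 and 119 ± 18.3 CPM (SD, n = 4 each) and the log2 fold change was 0.01 (SE 0.12, unadjusted 95% interval -0.25 to 0.27, limma-voom adjusted p = 0.964).

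Cttn (ENSMUSG00000031078, chr7:144435733-144471009, - strand), which encodes cortactin, a branched-actin regulator, has its nearer edge 367.1 kb before Fgf3. Its counts were 615, 528, 534 and 508 in Vehicle and 648, 565, 685 and 620 in AG636. Every AG636 library was above every Vehicle library in CPM, although AG636 4, at 89.62 CPM, and Vehicle 1, at 89.60 CPM, were nearly level. The groups did not overlap in this direction for 9.35% of all tested genes. The mean level was 82.7 ± 5.14 CPM in Vehicle and 97.5 ± 9.41 CPM in AG636 (SD, n = 4 each). The log2 fold change was 0.23 (SE 0.09, unadjusted 95% interval 0.03 to 0.44), opposite in sign to that of Fgf3, and did not pass the test (limma-voom, adjusted p = 0.118).

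Of the 4 testable members beside Fgf3, 0 were called by limma-voom, 2 had an unadjusted p under 0.05, and the median log2 fold change was -0.12. edgeR also called 0, and DESeq2 called 1, Ano1. Of all tested genes limma-voom called 14.0% in either direction. In the lower direction limma-voom called 8.49%, edgeR 8.41% and DESeq2 9.25% lower, and a count of 0 or 1 among 4 does not set these genes apart.

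The window was then widened to all 31 genes within 1 Mb on either side of Fgf3, of which 17 had a count in any library and 14 were at 0 in all. Within 250 kb the table listed 14 genes, and 10 had a count, but 5 of these had at most 20 counts summed over the 8 libraries. Apart from Fgf3, only Ano1 and LTO1 could be tested within this distance. In the wider window the tested genes that are not members were LTO1, Dhcr7 and Tpcn2. Dhcr7, the last enzyme of cholesterol synthesis, lies 989.7 kb before Fgf3 and had a log2 fold change of -0.30 (SE 0.19, limma-voom adjusted p = 0.299). Tpcn2, an endolysosomal ion channel 342.1 kb after Fgf3, had one of 0.25 (SE 0.44, adjusted p = 0.743). Of the 7 tested genes beside Fgf3, limma-voom and edgeR called 0, each with 3 at an unadjusted p under 0.05, and DESeq2 called 1, Ano1, with 2 at an unadjusted p under 0.05. Their median log2 fold change was -0.26. Among all tested genes limma-voom called 14.0%, so a count of 0 or 1 among 7 does not set these genes apart.

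**Figure D2:**
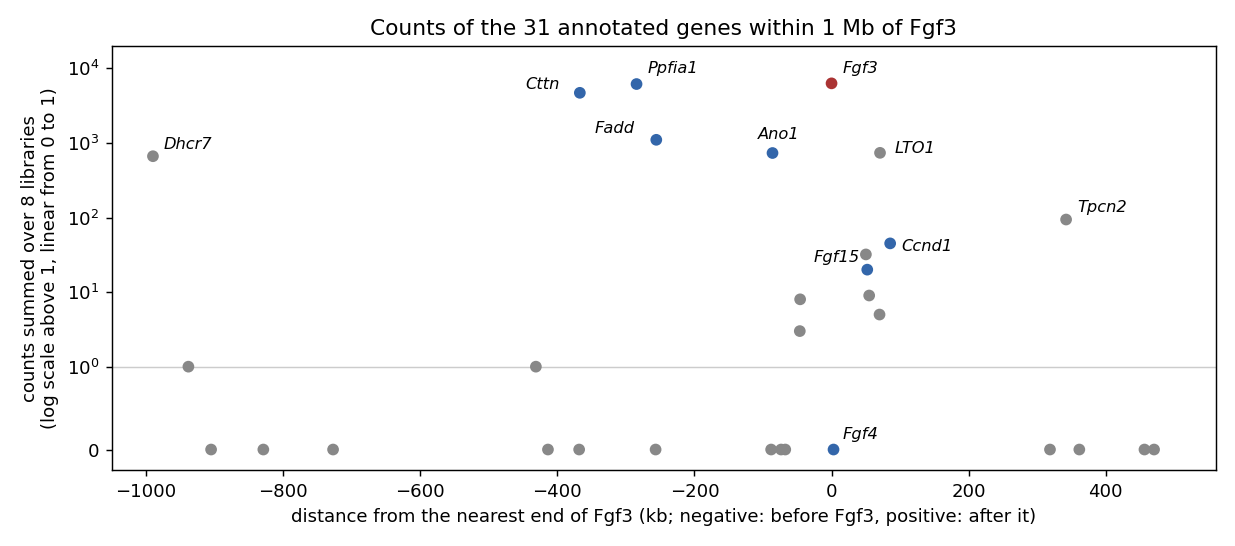
Counts summed over 8 libraries, on a log scale above 1, of the 31 genes within 1 Mb of Fgf3 against their distance from its nearest end in kb. Fgf3 (red) held 6298 counts between neighbours with few or none, Ppfia1 and Cttn among the other members (blue) held 6165 and 4703, and genes that are not members are grey.

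Fgf3 had the most counts of all FGF ligands when the libraries were summed. Of the 22 ligand genes in the table, 11 had 0 counts in all libraries, among them Fgf1 and Fgf8, and 5 were tested, including Fgf3. None of the other 4 was called by limma-voom, edgeR or DESeq2, with 0, 1 and 1 at an unadjusted p under 0.05, and their median log2 fold change was 0.20. With 14.0% of all tested genes called by limma-voom, 0 of 4 does not set them apart. These 4, and the receptor genes below, were named after their values were seen. Fgf2, a ligand with broad activity, had 28.9 ± 2.02 CPM in Vehicle and 27.1 ± 6.41 CPM in AG636, a log2 fold change of -0.12 (limma-voom, adjusted p = 0.683). Fgf10, which signals from mesenchyme to epithelium, had 9.57 ± 1.12 and 14.8 ± 6.15 CPM, a log2 fold change of 0.52 (limma-voom, adjusted p = 0.276; without AG636 2, 0.82 with adjusted p = 0.0319). Fgf11 and Fgf13, which encode FGF-like proteins that stay in the cell, had log2 fold changes of 0.55 and -0.19 (limma-voom, adjusted p = 0.322 and 0.717).

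Fgfr1 had the most counts of the FGF receptor genes. Its counts were 512, 480, 507 and 333 in Vehicle and 449, 241, 698 and 369 in AG636. The AG636 libraries spanned the whole Vehicle range, with AG636 3 the highest of all 8 libraries and AG636 2 the lowest. The log2 fold change was -0.12 (SE 0.27, unadjusted 95% interval -0.71 to 0.48, limma-voom adjusted p = 0.810). Fgfr2 and Fgfr4 and the co-receptor genes Kl and Klb had 0 counts in all libraries, and Fgfr3 had at most 2 in any. Of the 12 receptor and co-receptor genes, Fgfr1 and the decoy receptor gene Fgfrl1 (log2 fold change -0.21, adjusted p = 0.623, limma-voom) were tested, and 0 were called by limma-voom, edgeR or DESeq2, with 0 at an unadjusted p under 0.05 by each. So few genes are not set apart by this, as limma-voom called 14.0% of all tested genes.

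**Figure D3:**
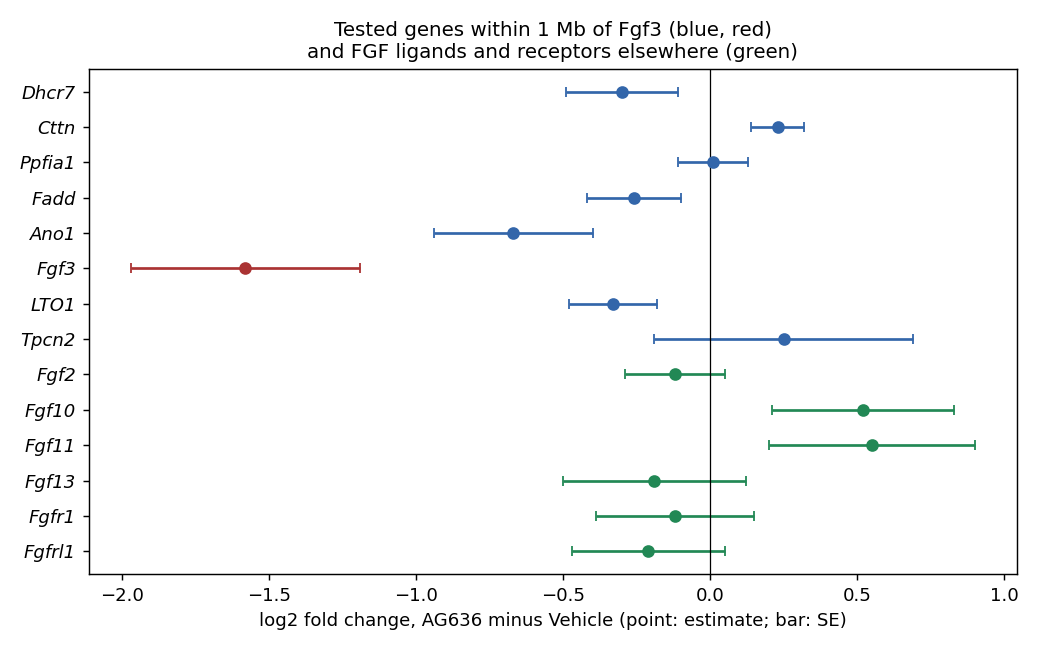
Log2 fold change, AG636 minus Vehicle, with its SE, of the tested genes within 1 Mb of Fgf3 (blue, with Fgf3 in red) and of the FGF ligands and receptors elsewhere (green). The point of Fgf3 lies at -1.58, and those of the others lie between -0.67 for Ano1 and 0.55 for Fgf11.

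Among the 17 tested genes of the signal relay from receptor to ERK, 2 fell, 0 rose and the median log2 fold change was 0.00. The 2 are 11.8% of the list, near the 8.49% of all tested genes that were called lower. Nras averaged 207 ± 5.56 CPM in Vehicle and 170 ± 14.6 CPM in AG636 and fell by 0.29 on the log2 scale (SE 0.08, limma-voom adjusted p = 0.0408). Its groups did not overlap, as for 12.9% of all tested genes in this direction. Hras averaged 35.3 ± 0.276 and 24.9 ± 6.39 CPM and fell by 0.52 (SE 0.15, limma-voom adjusted p = 0.0420). AG636 4 lay just under the Vehicle libraries and the other 3 AG636 libraries far below. Both calls were near the threshold. With 1 library left out, Nras kept its call only without AG636 1 or AG636 4, and Hras only without AG636 4. In the other fits with 1 library left out, adjusted p-values ran up to 0.120 and 0.106 (limma-voom). On all 8 libraries DESeq2 called both genes and edgeR called Nras but not Hras.

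No feedback target of FGF and ERK signalling passed the test. Of 18 in the table, 11 were tested, and 0 were called by limma-voom, edgeR or DESeq2, with 0 at an unadjusted p under 0.05 by each. As limma-voom called 14.0% of all tested genes, a count of 0 among 11 does not set these genes apart. Their log2 fold changes ran from -0.61 for Etv5 to 0.55 for Dusp6, with a median of 0.04. Both ends of this range moved with single libraries. Etv5 was at -0.01 without AG636 2 and -1.08 without AG636 3, and Dusp6 at 0.86 and 0.18. Etv5, an ETS factor induced by FGF signals, had 48, 69, 90 and 47 counts in Vehicle and 44, 10, 105 and 48 in AG636. Dusp6, the phosphatase that switches ERK off, had 46, 57, 97 and 37 counts in Vehicle and 71, 39, 169 and 84 in AG636. Both were named after their values were seen, as the ends of that range. In both genes Vehicle 3 was the highest Vehicle library, AG636 3 the highest and AG636 2 the lowest AG636 library, as for Fgf3.

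This order within the AG636 group was looked at in all lists after these values were seen. AG636 2 was the lowest and AG636 3 the highest AG636 library for 8 of the 11 feedback targets (72.7%), and for 1401 of all 10910 other tested genes (12.8%). Etv5 and Dusp6, which prompted the look, are among the 8. The order also held for 4 of 10 cortical actin partners of Cttn, 3 of 10 genes of the D-type cyclin list, 2 of 17 of the signal relay, 1 of 4 other ligands, 1 of 3 megakaryocyte markers and 1 each of the receptor, progenitor and erythroid lists. After the group means were subtracted, the correlation of log2 CPM with Fgf3 over the 8 libraries had a median of 0.84 over the 11 genes and was above 0 for 10 of them, with 0.96 for Etv5, 0.87 for Dusp6 and -0.08 for Spry1, a Sprouty gene named as the lowest. Fgfr1 had the same order (r = 0.86). So did genes outside the FGF lists, such as Gata2 (r = 0.97) and Arpc2 (r = 0.95), both named after their values were seen. The median r was -0.33 over the progenitor list, which holds Gata2, and 0.43 over the actin list, which holds Arpc2. Of the 7 tested neighbours 0 had this order, which with 12.8% of all genes having it does not set them apart, and their r ran from -0.83 for Ppfia1 to 0.58 for Cttn. All points share the same 8 libraries, and AG636 2 and AG636 3 stand at opposite ends for many genes, so these correlations are a description of these libraries.

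**Figure D4:**
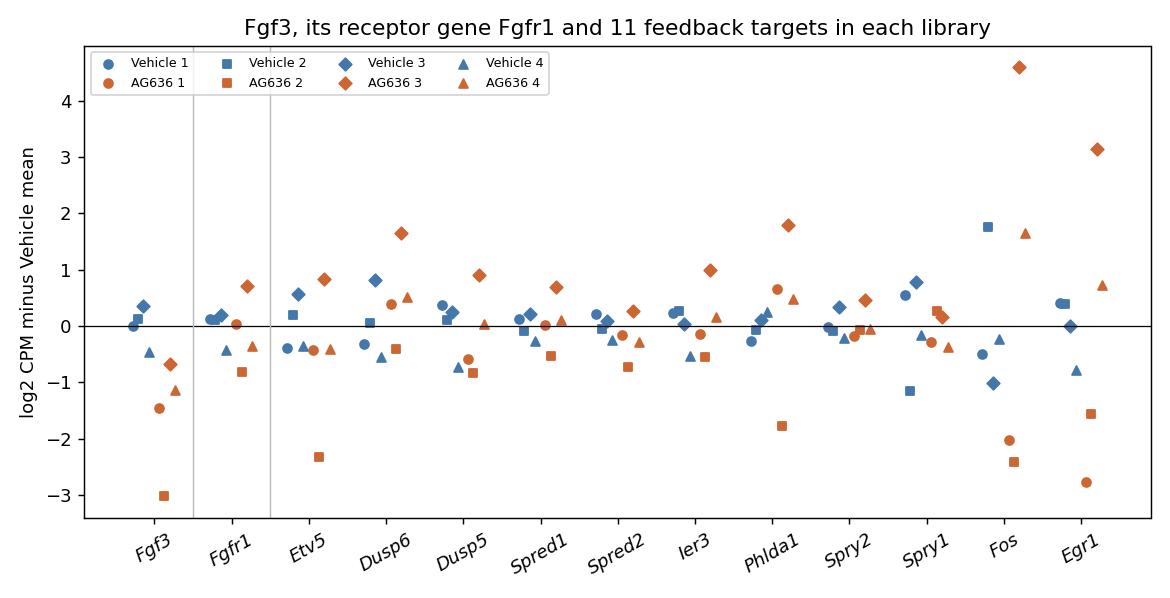
Log2 CPM minus the Vehicle mean of Fgf3, Fgfr1 and the 11 tested feedback targets in each library, with 1 marker shape per replicate number and 1 colour per group. All AG636 libraries were below 0 for Fgf3, whereas for the feedback targets they lay on both sides. AG636 3 was the highest AG636 library in 10 of 11 targets, and in 2976 of all 10910 other tested genes, counted after the values were seen.

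The genes whose pattern was most like that of Fgf3 were sought among the same 5260 genes. Over the 8 libraries the 5 with the highest Pearson r were Tef (0.996), a PAR bZIP transcription factor, Wdr1 (0.985), an actin disassembly factor, Ptpn7 (0.984), a phosphatase of ERK kinases in blood cells, Srgn (0.983), the core protein of the serglycin proteoglycan, and Gusb (0.983), the lysosomal beta-glucuronidase. Tef followed Fgf3 in the exact order of the libraries (Spearman 1.0) and moved less, with 59.3, 59.8, 62.1 and 54.3 CPM in Vehicle and 44.2, 31.1, 49.6 and 45.1 CPM in AG636. Over the 6 libraries left without AG636 2 and Vehicle 3, the ones farthest from the median of Fgf3, r was 0.987 for Tef, 0.932 for Wdr1, 0.930 for Ptpn7, 0.926 for Srgn and 0.959 for Gusb. In all, 111 genes had an r above 0.9. After the group means were subtracted, the 5 most alike were Tef (0.993), the intermediate filament gene Vim (0.990), the carboxypeptidase inhibitor gene Lxn (0.988), the tropomyosin gene Tpm4 (0.988) and Srgn (0.987). Without subtraction of the group means, r over 8 libraries was 0.657 for Vim, 0.942 for Lxn and 0.704 for Tpm4. Over the 6 libraries, also without subtraction, it was -0.16, 0.781 and 0.03. These values still hold the difference between the groups. Whether the likeness within groups rests on the libraries left out was not tested. None of these 8 genes lies on chromosome 7. Of Fgf3's own neighbours, Ano1 had the highest r over the 8 libraries (0.74), and 0.46 after the group means were subtracted.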

How the data were processed

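Total RNA of sorted leukaemic cells was made into libraries with the QuantSeq 3′ kit (Lexogen), so a count depends little on transcript length. The deposited table holds unnormalised counts of reads for each gene, made by the authors with cutadapt (1.9.1), HISAT2 (2.0.4) and featureCounts of Subread (1.5.0-p3) on GRCm38/mm10, per the submitters' processing notes. Settings for strand, multiple mapping and overlapping genes are not given in the sources used here. Of 54838 genes 115 had no symbol. Genes passing filterByExpr (minimum count 10) were compared by limma-voom with TMM factors (limma 3.58.1, edgeR 4.0.16, R 4.3.3), as the study used limma, in a single model of the 8 samples with no term except group. Tests were two-sided and Benjamini-Hochberg adjustment was over 10911 genes (threshold 0.05), of which 926 were called lower and 597 higher. Fgf15 and Ccnd1 were below the filter and compared by an exact permutation test of CPM. Likeness used log2 CPM (prior count 2).

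The members and lists were chosen with earlier results of these data known. Named genes are the members, tested genes of the 1 Mb window, called genes of each list, and the 5 genes most like Fgf3 by each measure. Other genes with values are marked as named after these were seen. Totals of 6120030 to 7162036 counts set the precision, and limits on counts of 0 cover counting error only. No pair of replicates agreed within sampling noise (chi-square per degree of freedom 3.69 to 22.6). Alternatives were edgeR's quasi-likelihood test, DESeq2 (1.42.0), sample quality weights, RLE factors, library size alone, no filter, mitochondrial genes left out, a replicate block, each sample left out and, added after the data were seen, the test of Fgf15 and Ccnd1 and the fits without Vehicle 4 and either AG636 2 or AG636 3.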

Additional observations from a re-analysis of the deposited data

How the results depend on the processing

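Fgf3 was lower in AG636 in all 18 alternative fits, with log2 fold changes from -2.0 to -1.10, and from -1.87 (without AG636 3) to -1.10 (without AG636 2) when 1 library was left out. With library sizes alone its means were 169 and 68.2 CPM. Cttn, Fadd and LTO1 kept their direction and stayed past no threshold in any fit (0.17 to 0.30, -0.38 to -0.08 and -0.43 to -0.26). Ano1 was called at -0.71 by DESeq2, at -0.97 without Vehicle 4 and AG636 3 and at -0.87 without Vehicle 4 and AG636 2, both fits added after the data were seen, and ranged from -0.91 (without Vehicle 4, called) to -0.50 with 1 library left out. The count of called genes among the neighbours in the 1 Mb window was accordingly 1 in these fits, and 0 to 1 with 1 library left out. Changes of sign near 0 came with 1 library left out for Ppfia1 (-0.069 to 0.11), Tpcn2 (-0.14 to 0.54), Fgf2 (-0.20 to 0.069), Fgfr1 (-0.39 to 0.12) and Ccnd3 (-0.031 to 0.13). Tpcn2 was also at -0.023 with sample quality weights and at -0.23 without Vehicle 4 and AG636 3, where Fgf2 was at 0.12. Without Vehicle 4 and AG636 2, Ppfia1 was at -0.033 and Tpcn2 at -0.20. The calls of Nras, Hras, Cdk4 and Cdkn1b were also lost in some fits with another scaling, filter or tool, and that of Was without Vehicle 1 or Vehicle 3 (adjusted p up to 0.0586, limma-voom). The cause was not tested.

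The count of all called genes was 1523, and 688 to 1706 with 1 library left out: 798, 918, 688 and 1010 without Vehicle 1, 2, 3 and 4. It was 945 without Vehicle 4 and AG636 2. edgeR called 1612, DESeq2 1964, limma-voom with sample weights 1884 and without a filter 1202. With the replicate number as a block, 1446 genes were called, Fgf3 had -1.50 and Ano1 -0.71 (adjusted p = 0.0896, limma-voom), and among the named genes the calls of Nras and Hras were lost (-0.29 and -0.51). Same-numbered samples deviated together with correlations of -0.14, 0.01, 0.20 and 0.14, and no Vehicle sample other than number 3 correlated best with its own number, so the numbers were not taken to pair the samples. Depth limits Fgf4, Fgf15 and Ccnd1, for which a library at 0 allows a level of up to 0.434 to 0.479 CPM. The smallest change between the groups that could have been seen for these genes was not measured.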

Other observations

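The partners of 2 neighbours gave further values. Fadd acts with death receptors, their adaptors and caspase 8, and of 8 such genes 5 were tested. limma-voom, edgeR and DESeq2 called 0 of them, with 2, 2 and 1 at an unadjusted p under 0.05, and the median log2 fold change was -0.12. A count of 0 among 5 does not set them apart, since limma-voom called 14.0% of all tested genes. Ripk1, a kinase of the receptor complex, had 305, 262, 267 and 274 counts in Vehicle and 205, 213, 209 and 270 in AG636. The groups did not overlap in CPM, as for 12.9% of all tested genes in this direction (41.9 ± 1.78 and 34.6 ± 3.10 CPM, SD, n = 4 each), and the log2 fold change was -0.28 (limma-voom, adjusted p = 0.0815). It passed without AG636 4 (adjusted p = 0.0478, limma-voom). Traf2, an adaptor of the same complex, was lower in each AG636 library too, with a log2 fold change of -0.28 that did not pass (limma-voom, adjusted p = 0.153). Both were named after their values were seen.

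Cortactin works with the Arp2/3 complex and its activators at the cell cortex, and of 11 such genes 10 were tested, 1 fell and 0 rose, near the 8.49% of all tested genes called lower. Was, the activator of Arp2/3 in blood cells, had 620, 550, 560 and 524 counts in Vehicle and 388, 366, 451 and 465 in AG636. Each AG636 library was below each Vehicle library in CPM too, as for 12.9% of all tested genes. Was fell by 0.41 on the log2 scale (SE 0.09, limma-voom adjusted p = 0.0174), with 85.3 ± 4.43 CPM in Vehicle and 64.5 ± 6.26 CPM in AG636. The median log2 fold change of the 10 genes was 0.05.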
